A study of Saccharomyces cerevisiae with 8 samples.

Results

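The ATG genes of Saccharomyces cerevisiae encode the proteins that build autophagosomes and choose what enters them, and their transcripts were followed here in wild-type and grr1-deficient cells before and after tunicamycin. Genes were taken whose symbol is ATG followed by a number: 28 carry such a name in the authors' comparison tables, and 9 more (ATG31, ATG36, ATG38, ATG39, ATG40, ATG41, ATG42, ATG44 and ATG45) stand there under an older or systematic name and were found by their RefSeq symbol. These 37 genes, of 6696 counted gene regions, were divided into 6 receptors of selective autophagy and 31 other genes. ATG45, known as a receptor for glycogen, is counted with the accessory genes and not in the receptor counts. All 37 passed the filter on low counts, which kept 5855 genes.

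RNA-seq was done on total RNA of the W303 strain, in 4 groups of 2 biological replicates, 8 libraries in all: wild-type (WT) cells and grr1-deficient cells, each at 0 h and at 4 h of 1 µg/ml tunicamycin. All cultures grew in synthetic complete medium with 2% glucose at 30 °C, and tunicamycin was added at an OD600 of 0.2. Tunicamycin blocks N-linked glycosylation and so causes misfolding in the endoplasmic reticulum (ER), and Grr1 is the F-box subunit of a ubiquitin ligase that marks selected proteins for degradation. The labels do not say how grr1 was inactivated, and untreated 4 h cultures were not analysed here, so 4 h of tunicamycin and 4 h of growth cannot be told apart.

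In autophagy, the Atg1 kinase complex starts the assembly of a membrane, a phosphatidylinositol 3-kinase marks it, Atg9 vesicles and the lipid transfer protein Atg2 feed it, and the ubiquitin-like proteins Atg8 and Atg12 are conjugated to build it. The closed autophagosome fuses with the vacuole, where its content is broken down. Receptors tie a particular cargo to Atg8 and to the scaffold Atg11: Atg39 is the receptor for the nuclear envelope, Atg40 for the ER, Atg32 for mitochondria, Atg36 for peroxisomes, and Atg19 and its paralogue Atg34 for vacuolar enzymes delivered through the same machinery.

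The libraries held 4885844 to 12380049 reads on genes. In WT, GRR1 drew 1179 and 1384 reads before and 1794 and 1829 after tunicamycin, while in grr1-deficient cells it drew 2 and 3 and then 6 and 12, as the genotype labels say. The grr1-deficient replicates differed from each other more than the WT replicates did. The chi-square per degree of freedom between replicates was 19.2 and 6.04 in WT at 0 h and 4 h, and 165 and 458 in grr1-deficient cells. Mitochondrial reading frames are counted in it. Replicate 2 of grr1-deficient cells almost lacked mitochondrial transcripts other than Q0092, with 0.00393% and 0.000808% of gene reads at 0 h and 4 h against 10.8% and 13.4% in replicate 1 and 1.72% to 5.03% in WT. The ATG medians that involve grr1-deficient cells, and the values of some genes, are therefore given with and without that replicate. Counts of calls and most values of single genes include it, and its part in them was not tested beyond this. Among the ATG genes the median SD between replicates, on the log2 scale, was 0.1 and 0.07 in WT and 0.146 and 0.121 in grr1-deficient cells, with ATG8 at 0 h in grr1-deficient cells the widest at 0.991. Among all genes tested it was 0.087 and 0.069 in WT and 0.175 and 0.159 in grr1-deficient cells.

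ATG transcripts as a group took a larger share of the reads after tunicamycin in both strains. In WT they made up 0.0775% and 0.0805% of gene reads at 0 h and 0.376% and 0.378% at 4 h. In grr1-deficient cells they made up 0.13% and 0.177% at 0 h and 0.279% and 0.233% at 4 h. The 4 groups did not overlap, and the order was WT at 0 h, grr1-deficient at 0 h, grr1-deficient at 4 h, WT at 4 h. These shares are not scaled between libraries, and part of the rise in WT was common to genes at large. Without such scaling the median log2 change in WT was 0.78 for all genes tested and 2.42 for the ATG genes. In grr1-deficient cells it was 0.1 and 0.78. In RNA from whole cultures, a change in RNA per cell and a change in the share of cells that hold the RNA cannot be told apart.

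In WT, 32 of the 37 ATG genes rose over the 4 h, 1 fell and 4 did not pass the test (edgeR quasi-likelihood test, Benjamini-Hochberg adjusted over all 5855 genes, threshold 0.05). Of all genes tested, 32.5% rose and 33.1% fell. The median log2 change was 1.67 for the ATG genes and 0.03 for all genes. With libraries matched by replicate number, as a description, the median log2 ratio of 4 h to 0 h in WT was 1.65 and 1.67. In both, 35 of the 37 genes were above 0. By fitted value 36 of the 37 ATG genes and 3008 of all 5855 genes were above 0. Of the 28 genes with an ATG name in the authors' tables, 26 rose and 1 fell. Leaving out any 1 library kept 29 of the 33 calls.

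**Figure D1:**
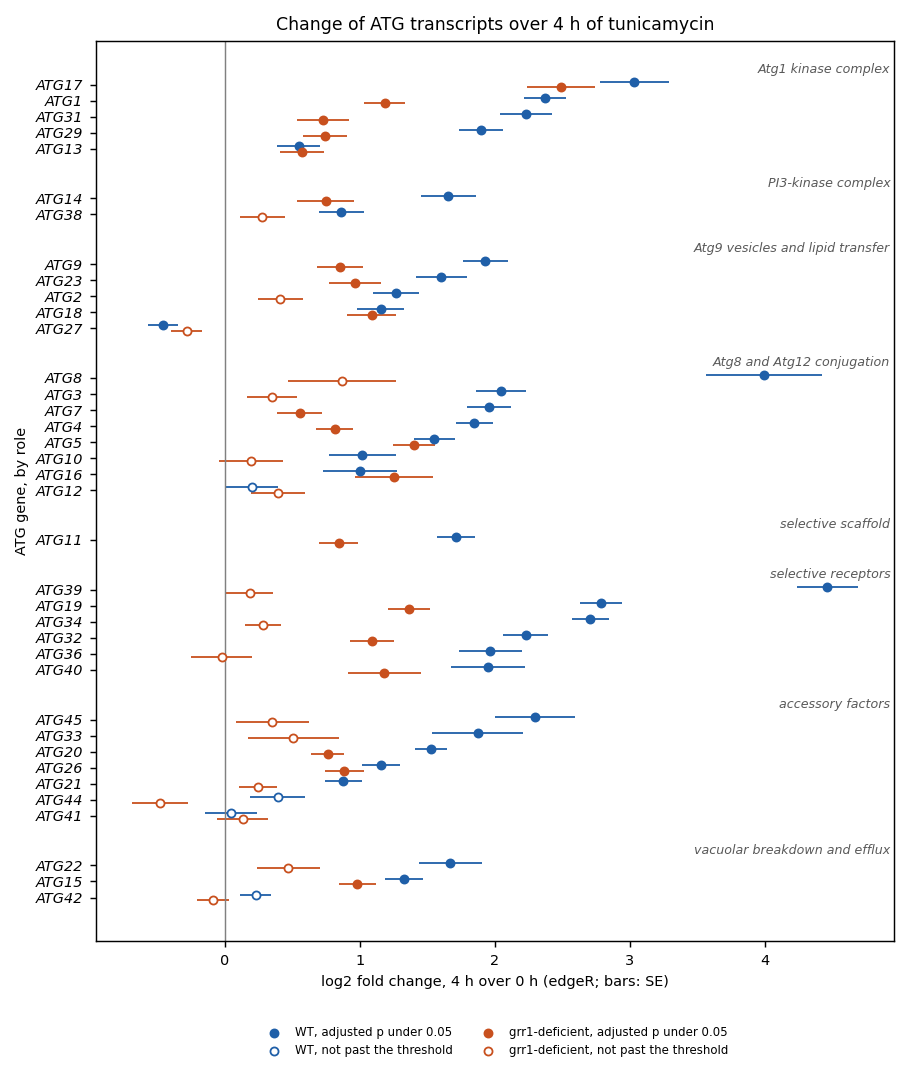
The log2 fold change of each of the 37 ATG genes from 0 h to 4 h of tunicamycin (x axis), with genes grouped by role (y axis), in WT (blue) and grr1-deficient cells (orange). Bars are SE, filled points passed the adjusted p threshold of 0.05, and 32 WT points and 20 grr1-deficient points to the right of 0 are filled.

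The receptors all rose in WT, 6 of 6, with a median log2 change of 2.47. ATG39 (YLR312C, chromosome XII, 757637 to 758833, minus strand) changed the most of all 37 genes. Its level, in CPM (reads relative to the library's total, with that total scaled by TMM), was 3.22 and 2.48 at 0 h and 62.7 and 63.7 at 4 h, from 29 and 23 reads and from 672 and 707 reads. The groups lay far apart, and the log2 fold change was 4.47 ± 0.23 (SE, adjusted p = 9.17e-07). ATG40 (YOR152C, chromosome XV, 617518 to 618288, minus strand), the ER receptor, had 8.23 and 6.67 CPM at 0 h and 29.7 and 27.7 at 4 h, a log2 fold change of 1.95 ± 0.27 (adjusted p = 0.000304). That was the smallest change among the receptors.

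The receptors for other cargo lay between these values. ATG19 had 45.4 and 45.6 CPM at 0 h and 305 and 324 at 4 h (log2 2.79 ± 0.15, adjusted p = 1.82e-06). Its paralogue ATG34 (YOL083W, chromosome XV, 165714 to 166952, plus strand) had 8.45 and 7.42 CPM at 0 h and 51.9 and 52 at 4 h (log2 2.71 ± 0.14, adjusted p = 1.1e-06). The sources used here do not say how reads that match more than 1 gene were counted, so the split between related genes such as these is uncertain. ATG32, for mitochondria, rose by 2.23 ± 0.17 on the log2 scale, and ATG36, for peroxisomes, by 1.97 ± 0.24. ATG11, the scaffold that the receptors bind, rose by 1.71 ± 0.14.

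**Figure D2:**
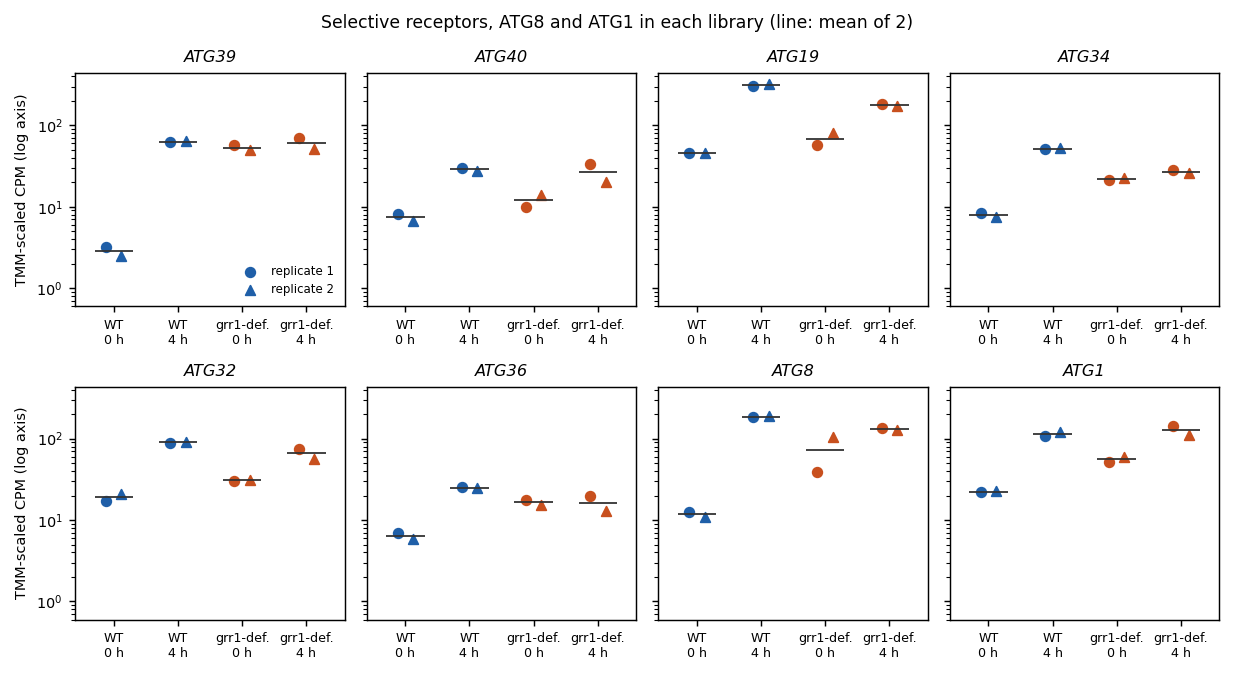
Level of the 6 receptor genes, ATG8 and ATG1 in each of the 8 libraries, as TMM-scaled CPM on a log axis, with circles for replicate 1, triangles for replicate 2 and a line at the mean of 2. ATG39 stands at 2.48 and 3.22 in WT at 0 h and between 49.7 and 70.2 in the other 6 libraries.

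The genes of the Atg1 kinase complex rose in WT, 5 of 5. ATG17, the scaffold on which the complex assembles with ATG29 and ATG31, went from 20.6 and 19.8 CPM to 158 and 173, a log2 fold change of 3.03 ± 0.25 (adjusted p = 2.49e-05). ATG1, the kinase itself, went from 21.9 and 22.7 CPM to 109 and 122 (log2 2.37 ± 0.15, adjusted p = 3.81e-06). ATG13, the subunit through which TOR controls the complex, had the smallest change, 0.55 ± 0.16 (adjusted p = 0.0149). That call was lost without WT 0 h replicate 1 (0.35, adjusted p = 0.146) and without WT 4 h replicate 1 (0.43, adjusted p = 0.112). Both subunits named ATG in the phosphatidylinositol 3-kinase complex rose, ATG14, which makes the complex specific to autophagy, by 1.66 ± 0.21 and ATG38 by 0.86 ± 0.17 on the log2 scale.

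Among the genes of Atg8 and Atg12 conjugation, 7 of 8 rose in WT. ATG8 (YBL078C, chromosome II, 80378 to 80731, minus strand), which encodes the ubiquitin-like protein joined to the membrane lipid, had 12.5 and 11 CPM at 0 h and 185 and 189 at 4 h. Its log2 fold change of 4 ± 0.43 (adjusted p = 0.000396) was second to that of ATG39. The enzymes of its conjugation followed, ATG3 (log2 2.05 ± 0.18), ATG7 (1.96 ± 0.16) and the protease ATG4 (1.85 ± 0.14). ATG12, the other ubiquitin-like gene, had 24 and 18.3 CPM at 0 h and 21.1 and 27.5 at 4 h, so its groups overlapped (log2 0.2 ± 0.2, adjusted p = 0.392). The calls of ATG10 and ATG16 rested on single libraries. ATG10 was at 0.81 (adjusted p = 0.0607) without WT 4 h replicate 2. ATG16 was at 0.7 (adjusted p = 0.11) without WT 0 h replicate 2, 1.02 (adjusted p = 0.0571) without WT 4 h replicate 1 and 0.98 (adjusted p = 0.0642) without WT 4 h replicate 2.

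Of the 5 genes for Atg9 vesicles and lipid transfer, 4 rose and 1 fell in WT. ATG9, the membrane protein carried by the vesicles, rose by 1.93 ± 0.17 on the log2 scale. ATG27, which helps move Atg9, was the exception: it had 104 and 93.7 CPM at 0 h and 74.4 and 69.1 at 4 h, a log2 fold change of -0.46 ± 0.11 (adjusted p = 0.00636). The direction of ATG27 depended on the scaling and was 0.29 (adjusted p = 0.0904) with total counts in place of TMM. Its call was lost without WT 0 h replicate 1 (-0.41, adjusted p = 0.053) and without WT 4 h replicate 2 (-0.41, adjusted p = 0.0694).

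Accessory and vacuolar genes were more mixed. Of 7 accessory genes 5 rose in WT, from ATG45 at 2.3 ± 0.3, to ATG21, a phosphoinositide-binding protein, at 0.88 ± 0.14. ATG44, a mitochondrial fission factor, was at 0.39 ± 0.2 (adjusted p = 0.122), and ATG41, an Atg9 partner, at 0.05 ± 0.19 (adjusted p = 0.849). Of the 3 vacuolar genes, ATG22, an amino acid exporter, rose by 1.67 ± 0.24 and ATG15, the lipase that opens autophagic bodies, by 1.33 ± 0.14. ATG42, a vacuolar carboxypeptidase, had 143 and 135 CPM at 0 h and 168 and 158 at 4 h (log2 0.23 ± 0.12, adjusted p = 0.118).

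Promoters were read from the R64 RefSeq genome, which is not of the W303 strain, as the 300 bases before the start codon. Shown are windows of 30 bases in the promoters of ATG39, ATG8 and ATG34, the genes with the largest difference in response between the strains. Each runs 5′ to 3′ on the coding strand of its gene, and capitals mark the motif match, on either strand.
ATG39, AGGGG match 270 to 266 bases before the start codon, chrXII:759087-759116, minus strand: cattttgcggtaaCCCCTttgcgcgacagc
ATG39, GATAAG match 251 to 246 bases before it, chrXII:759067-759096, minus strand: gcgcgacagctgCTTATCaaggtacctgga
ATG39, CCGGGG match 299 to 294 bases before it, chrXII:759104-759133, minus strand: cCCCCGGtccatctatccattttgcggtaa
ATG8, AGGGG match 91 to 87 bases before it, chrII:80806-80835, minus strand: tggaaatacaaaaAGGGGaaccattaaagg
ATG8, AGGGG match 68 to 64 bases before it, chrII:80783-80812, minus strand: ttaaaggttgaggAGGGGattgataagaga
ATG8, GATAAG match 60 to 55 bases before it, chrII:80774-80803, minus strand: gaggaggggattGATAAGagaatctaataa
ATG34, AGGGG match 187 to 183 bases before it, chrXV:165514-165543, plus strand: aatggcacacgcaCCCCTaaagtaggtggg
ATG34, GTGGGG match 175 to 170 bases before it, chrXV:165527-165556, plus strand: cccctaaagtagGTGGGGaggaaaaaggaa

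AGGGG is the stress response element bound by Msn2 and Msn4, and it was found in 11 of 37 ATG promoters (29.7%) and in 22.2% of all 6001 promoters. GATAAG, bound by the nitrogen regulators Gln3 and Gat1, was found in 12 of 37 (32.4%) and in 14.7% of all promoters. The Mig1 site was searched as GCGGGG, as the form GTGGGG, as the form CCGGGG and as the form CTGGGG, and any of these was found in 5 ATG promoters (13.5%) and in 12% of all. Every motif was searched on both strands. Of the elements bound by Hac1, the factor of the unfolded protein response, CAGNGTG was found in 2 promoters (5.41% against 5.67% of all) and TACGTG in 6 (16.2% against 8.22%). The Gcn4 site TGACTCA was found in 1 (2.7% against 2.62%) and the Ume6 site AGCCGCC in 0 (2.28% of all). No match of 1 motif shared bases with a match of another in the 8 windows printed. Among all 37 promoters, a TACGTG match and a GATAAG match shared 1 base in that of ATG4. These matches describe letters in a window and are not binding sites shown by these data.

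In grr1-deficient cells, 20 of the 37 ATG genes rose over the 4 h, 0 fell and 17 did not pass the same test. Of all genes tested, 21.5% rose and 24.5% fell. The median log2 change was 0.73 for the ATG genes and 0.04 for all genes. The median within replicates was 0.862 in replicate 1 and 0.523 in replicate 2, and 29 of 37 genes were above 0 in both. By fitted value 33 of the 37 ATG genes and 3039 of all 5855 genes were above 0. Without both libraries of replicate 2 the median ATG change was 0.843, beside 0.022 for all genes. Without both libraries of replicate 1 it was 0.531, beside 0.011. Those fits rest on 1 library in each grr1-deficient group, assumed to vary like WT.

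The Atg1 kinase complex rose in full in grr1-deficient cells too, 5 of 5. ATG17 had 30.5 and 29.5 CPM at 0 h and 218 and 119 at 4 h, the largest change of the 37 genes in this strain (log2 2.49 ± 0.25, adjusted p = 0.00028). ATG1 had 51.8 and 59.6 CPM at 0 h and 142 and 111 at 4 h (log2 1.18 ± 0.15, adjusted p = 0.000497). ATG13 was again the lowest of the complex at 0.57 ± 0.16 (adjusted p = 0.0194). Its call was lost without grr1-deficient 4 h replicate 1 (0.5, adjusted p = 0.0623) and without grr1-deficient 0 h replicate 2 (0.48, adjusted p = 0.0774). That of ATG31 was lost without grr1-deficient 0 h replicate 1 (0.52, adjusted p = 0.0802) and without 4 h replicate 1 (0.59, adjusted p = 0.0579).

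Of the receptors 3 of 6 rose in grr1-deficient cells, with a median log2 change of 0.69 for the 6. ATG19 had 57.9 and 79.6 CPM at 0 h and 182 and 171 at 4 h (log2 1.36 ± 0.15, adjusted p = 0.000315). ATG32 rose by 1.09 ± 0.17. ATG40 rose by 1.18 ± 0.27 (adjusted p = 0.00818), from 10.1 and 13.8 CPM to 33.6 and 20.4, so most of it came from replicate 1, and the call was lost without grr1-deficient 0 h replicate 1 (0.94, adjusted p = 0.0586). Without grr1-deficient 4 h replicate 1 it was 0.78 (adjusted p = 0.0329). For ATG39 the groups overlapped, with 56.8 and 49.7 CPM at 0 h and 70.2 and 51.2 at 4 h (log2 0.18 ± 0.17, adjusted p = 0.413). ATG34 had 21.6 and 22.8 CPM at 0 h and 28 and 26.1 at 4 h (log2 0.28 ± 0.13, adjusted p = 0.115). ATG36 had 17.8 and 15.3 CPM and then 19.8 and 13.1 (log2 -0.02 ± 0.23, adjusted p = 0.945).

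The remaining roles split in grr1-deficient cells. Conjugation genes rose in 4 of 8 cases, led by ATG5, the target to which Atg12 is joined, at 1.4 ± 0.16, while ATG10, the enzyme that joins them, was lowest at 0.19 ± 0.24 (adjusted p = 0.528). ATG8 had 39.5 and 105 CPM at 0 h and 134 and 129 at 4 h (log2 0.87 ± 0.4, adjusted p = 0.128). The replicates of ATG8 disagreed at 0 h: without replicate 2 its change was 1.73, and without replicate 1 it was 0.28. Those fits rest on 1 library in each grr1-deficient group. ATG7 rose by 0.56 ± 0.17 (adjusted p = 0.0251), a call lost without grr1-deficient 0 h replicate 1 (0.39, adjusted p = 0.144) and without 4 h replicate 1 (0.44, adjusted p = 0.0951).

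ATG18, which recruits Atg2 to the membrane, was the highest of the Atg9 and lipid transfer genes at 1.09 ± 0.18, and 3 of those 5 rose. ATG27 was at -0.28 ± 0.11 (adjusted p = 0.0714). ATG14 rose by 0.75 ± 0.21 (adjusted p = 0.02), but not past the threshold without grr1-deficient 4 h replicate 1 (0.65, adjusted p = 0.0709) or 0 h replicate 2 (0.62, adjusted p = 0.0664), and ATG38 was at 0.28 ± 0.17 (adjusted p = 0.199). Of the accessory genes 2 of 7 rose, ATG26, a sterol glucosyltransferase, by 0.89 ± 0.14 and the sorting nexin ATG20 by 0.76 ± 0.12. ATG44 was lowest of all 37 at -0.48 ± 0.21 (adjusted p = 0.0886), with 36.4 and 58.6 CPM at 0 h and 34.9 and 32.9 at 4 h. Of the vacuolar genes ATG15 rose by 0.98 ± 0.14, and ATG42 was at -0.09 ± 0.12 (adjusted p = 0.558).

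The difference between the responses was tested as the interaction of genotype and time. It was negative and past the threshold in 21 of the 37 ATG genes, and positive and past it in 0. A negative value is a lower log2 change in grr1-deficient than in WT cells, not always a smaller one. For ATG44 the change was 0.39 in WT and -0.48 in grr1-deficient cells, neither past the threshold. Of all genes tested, 17.4% were lower and 19.9% higher in this sense. The median difference was -0.87 on the log2 scale for the ATG genes and 0.03 for all genes. By value alone, the difference was below 0 in 32 of the 37 genes and above 0 in 5. Among all 5855 genes tested it was below 0 in 2849 and above 0 in 3006. Of the receptors 5 of 6 passed the test, all but ATG40 (-0.77 ± 0.39, adjusted p = 0.154), with a median of -1.71 for the 6. Without both libraries of grr1-deficient replicate 2 the median ATG difference was -0.654, beside 0.063 for all genes. Without those of replicate 1 it was -1.096, beside 0.02.

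The largest differences were those of ATG39 (-4.28 ± 0.29, adjusted p = 7.95e-05), ATG8 (-3.13 ± 0.59, adjusted p = 0.00911) and ATG34 (-2.42 ± 0.19, adjusted p = 0.000129). That of ATG39 was -4.16 without grr1-deficient replicate 2 and -4.42 without replicate 1. That of ATG8 was -2.23 and -3.71, and it did not pass the threshold without grr1-deficient 4 h replicate 2 alone (-3.08, adjusted p = 0.0564). ATG36 (-1.99), ATG45 (-1.95), ATG3 (-1.7), ATG31 (-1.5), ATG19 (-1.42), ATG7 (-1.4) and ATG22 (-1.2) followed. All of these except ATG8 and ATG22 passed the test without any 1 of the 8 libraries. ATG22 did not pass it without any 1 of the WT libraries (adjusted p = 0.0637 to 0.0805) or without grr1-deficient 4 h replicate 1 (adjusted p = 0.0598), and its value was -0.73 (adjusted p = 0.0168) without grr1-deficient 0 h replicate 2.

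Some genes that rose in both strains did not pass this test, while others, ATG1 and ATG4 among them, did. ATG17 was at -0.54 ± 0.36 (adjusted p = 0.269), ATG5 at -0.15 ± 0.22 (adjusted p = 0.617) and ATG18 at -0.07 ± 0.25 (adjusted p = 0.856). For ATG17 the replicates decided the value, which was -0.18 without grr1-deficient replicate 2 and -1.02 without replicate 1. Each of these rests on 1 library in each grr1-deficient group. Across the 37 genes Pearson's r between the responses was 0.417 and Spearman's rho 0.358, a description over genes that share libraries and are not independent.

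**Figure D3:**
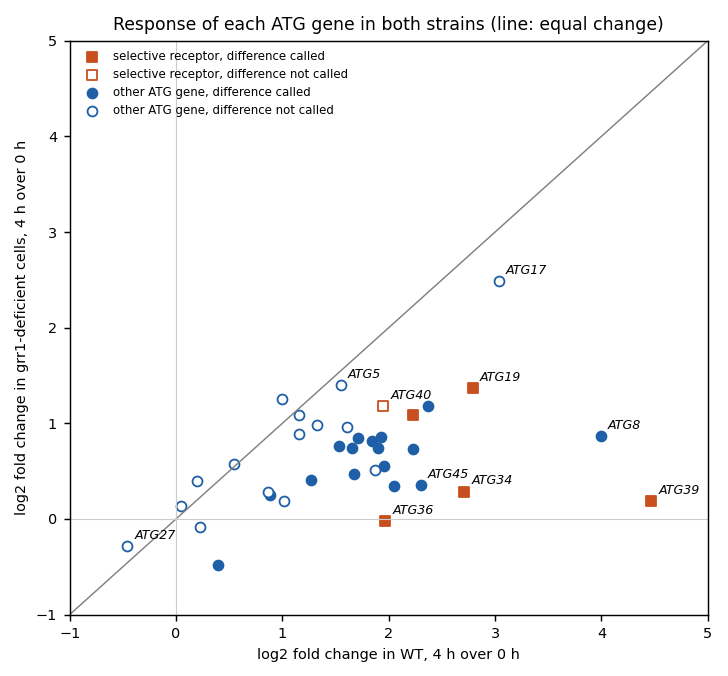
The log2 fold change of each of the 37 ATG genes over 4 h of tunicamycin in WT (x axis) and in grr1-deficient cells (y axis), with squares for the 6 receptors, circles for the other genes, filled where the interaction passed the adjusted p threshold and a line for equal change. Below the line lie 32 genes, with ATG39 (4.47 and 0.18) and ATG8 (4 and 0.87) farthest from it.

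Already at 0 h, ATG transcripts were mostly higher in grr1-deficient than in WT cells. Of the 37 genes 20 were higher, 2 were lower and 15 did not pass the test, beside 22.5% of all genes tested higher and 27.2% lower. The median log2 difference was 0.59 for the ATG genes and -0.07 for all genes. This comparison shares the WT 0 h libraries with the WT response and the grr1-deficient 0 h libraries with the other, so the values of the comparisons are not independent of each other.

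ATG39 differed the most at 0 h, with 56.8 and 49.7 CPM in grr1-deficient cells against 3.22 and 2.48 in WT (log2 4.22 ± 0.23, adjusted p = 1.25e-05). Those values stand beside 62.7 and 63.7 CPM in WT at 4 h. ATG8 had 39.5 and 105 CPM against 12.5 and 11 (log2 2.62 ± 0.43, adjusted p = 0.00411), and its difference was 1.74 without replicate 2 and 3.16 without replicate 1. ATG45 followed at 1.98 ± 0.31, with 15.4 and 19.8 CPM against 3.67 and 5.17. The other receptors were ATG34 at 1.48 ± 0.15, ATG36 at 1.37 ± 0.24, ATG32 at 0.69 ± 0.17, ATG19 at 0.59 ± 0.16 and, not past the threshold, ATG40 at 0.67 ± 0.29 (adjusted p = 0.0885). The call of ATG19 was lost without grr1-deficient 0 h replicate 2 (0.34, adjusted p = 0.061), WT 0 h replicate 1 (0.58, adjusted p = 0.0812) or WT 0 h replicate 2 (0.57, adjusted p = 0.0855), and that of ATG32 without WT 0 h replicate 1 (0.54, adjusted p = 0.0905).

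Outside the receptors, the higher values at 0 h lay in most roles. ATG1 was at 1.32 ± 0.16, ATG10 at 1.26 ± 0.25, ATG22 at 1.22 ± 0.24, ATG2 at 1.02 ± 0.17 and ATG29 at 0.79 ± 0.17, all past the threshold. ATG22 was at 0.75 (adjusted p = 0.00478) without grr1-deficient 0 h replicate 2. ATG29 overlaps the gene SET6 by 24 bases, and no source used here says whether strand was used in counting, so some of its reads may be of SET6. Lower in grr1-deficient cells were ATG18 (-0.54 ± 0.19, adjusted p = 0.0404) and ATG27 (-0.45 ± 0.11, adjusted p = 0.0107). Both were nearer to 0 with total counts (-0.14, adjusted p = 0.602, and -0.04, adjusted p = 0.812). Of the 22 calls at 0 h, 10 passed the test without any 1 of the 8 libraries, namely those of ATG39, ATG8, ATG45, ATG34, ATG36, ATG1, ATG10, ATG22, ATG2 and ATG29. The count was 11 without WT 0 h replicate 1, 12 without WT 0 h replicate 2 and 14 without grr1-deficient 0 h replicate 2. Without both libraries of grr1-deficient replicate 2 the median ATG difference at 0 h was 0.417, beside -0.095 for all genes. Without those of replicate 1 it was 0.69, beside -0.091.

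**Figure D4:**
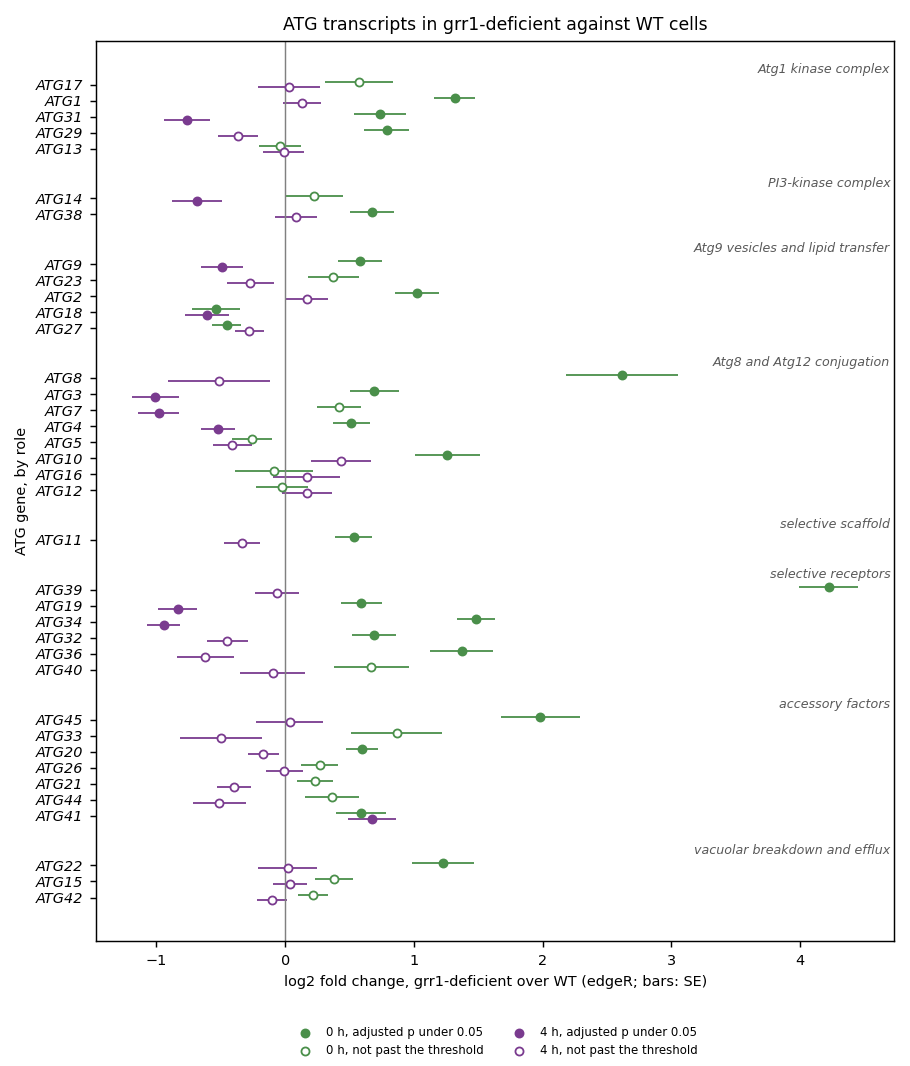
The log2 fold change of each of the 37 ATG genes in grr1-deficient against WT cells (x axis), with genes grouped by role (y axis), at 0 h (green) and at 4 h of tunicamycin (purple). Bars are SE and filled points passed the adjusted p threshold of 0.05, which at 0 h holds for 20 genes to the right of 0 and 2 to the left and at 4 h for 1 and 9.

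At 4 h of tunicamycin the ATG genes were, by median, slightly lower in grr1-deficient than in WT cells. Of the 37 genes 9 were lower, 1 was higher and 27 did not pass the test, beside 14.1% of all genes tested lower and 17.2% higher. The median log2 difference was -0.28 for the ATG genes and 0 for all genes. Lower were ATG3 (-1.01 ± 0.18, adjusted p = 0.005), which had 52.6 and 44.8 CPM against 89.9 and 106, and ATG7 (-0.98 ± 0.16, adjusted p = 0.00315), which had 38 and 32.4 against 65.2 and 73.7. The receptors ATG34 (-0.94 ± 0.13) and ATG19 (-0.83 ± 0.15) were lower too, as were ATG31 (-0.77), ATG14 (-0.68), ATG18 (-0.61), ATG4 (-0.52) and ATG9 (-0.49). ATG41 was higher at 0.67 ± 0.19 (adjusted p = 0.0293), with 58 and 39.6 CPM against 32.8 and 28.2. That value fell to 0.38 (adjusted p = 0.105) without grr1-deficient 4 h replicate 1 and to 0.4 (adjusted p = 0.164) with total counts, and the value of ATG18 was -0.4 (adjusted p = 0.13) without grr1-deficient 4 h replicate 2.

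ATG39 and ATG8 did not pass the test at 4 h. ATG39 was at -0.06 ± 0.17 (adjusted p = 0.809), with overlapping groups, and ATG8 at -0.51 ± 0.4 (adjusted p = 0.365). Of the 10 calls at 4 h, those of ATG34 and ATG7 passed the test without any 1 of the 8 libraries. The count ranged from 2, without WT 4 h replicate 2, to 14 when 1 library was left out. It was also 4 without WT 4 h replicate 1, 6 without either WT 0 h library and 5 without grr1-deficient 4 h replicate 2. Without both libraries of grr1-deficient replicate 2 the median ATG difference at 4 h was -0.256, beside -0.008 for all genes. Without those of replicate 1 it was -0.457, beside -0.016.

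Levels of different genes were compared as CPM per kilobase of the exon length counted by the authors. The median ATG gene was at 10.7 in WT at 0 h, where the median of all genes tested was 34.5, and at 38.4 against 34.1 at 4 h. In grr1-deficient cells it was at 17.1 against 35.5 at 0 h and at 30.4 against 35.2 at 4 h. In WT at 0 h the lowest ATG gene was ATG39 at 2.03, with 5.82% of all genes tested below it, and the highest was ATG44 at 117. In grr1-deficient cells at 0 h ATG39 stood 7th in the order at 38 per kilobase, after ATG44 (151), ATG42 (97.5), ATG41 (70.7), ATG8 (67), ATG27 (62.8) and ATG19 (50.5). At 4 h ATG19 was highest in both strains (231 in WT and 130 in grr1-deficient cells), ATG8 second (173 and 122) and ATG14 lowest (14 and 8.72).

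Genes with other names that act with the ATG genes were read from 6 lists, by counts only, to be set against 32.5% of all genes tested rising and 33.1% falling in WT and 21.5% and 24.5% in grr1-deficient cells. Of the 6 partners of the phosphatidylinositol 3-kinase and its lipid, 6 rose in WT and 4 in grr1-deficient cells, led in WT by the sorting nexin SNX4 (1.72 ± 0.2) and in grr1-deficient cells by the kinase subunit VPS15 (0.66). Of 14 genes for selective cargo and adaptors, 9 rose and 1 fell in WT, and 3 rose and 1 fell in grr1-deficient cells, where the share rising was that of all genes. AMS1, the alpha-mannosidase carried by Atg19 and Atg34, rose by 5.91 in WT and 2.65 in grr1-deficient cells, and the mitochondrial protease YME1 fell by 0.98 and 0.88 on the log2 scale. APE1, the aminopeptidase carried by Atg19, rose by 2.21 and 0.42.

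Of 8 vacuolar hydrolases 3 rose and 4 fell in WT, and 2 rose and 1 fell in grr1-deficient cells, beside 32.5% and 33.1% of all genes in WT and 21.5% and 24.5% in grr1-deficient cells. The protease PRB1 rose by 4.29 and 2.57, while DAP2 fell by 0.91 in WT and APE3 fell by 0.59 in grr1-deficient cells, each on the log2 scale. Of 17 genes for tethering and fusion 7 rose and 2 fell in WT and 4 rose and 2 fell in grr1-deficient cells, where the share rising was near that of all genes. MON1 (0.87) and YPT7 (-0.65) were the extremes in WT, and CCZ1 (1.05) and YPT7 (-0.48) in grr1-deficient cells, all of them parts of the Rab7 step of fusion.

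In WT, the counts of upstream genes that rose lay near or below the shares of all genes, 32.5% rising and 33.1% falling, and are no result about these lists. Of 18 genes for TOR and upstream kinases 6 rose and 2 fell in WT. In grr1-deficient cells 6 rose and 0 fell, beside 21.5% of all genes rising and 24.5% falling. TPK3, a catalytic subunit of protein kinase A, fell by 0.83 on the log2 scale in WT, and MTC5 rose the most in grr1-deficient cells (0.85). Of 15 transcriptional regulators of ATG genes 3 rose and 4 fell in WT, and 1 rose and 1 fell in grr1-deficient cells, against 21.5% and 24.5% of all genes. The kinase RIM15 rose by 1.13 in WT and the activator GCN4 fell by 1.43 on the log2 scale. The repressor RPH1 rose by 1.26 in grr1-deficient cells, and the deacetylase RPD3 fell by 0.52 on the log2 scale.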

How the data were processed

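The authors deposited whole-number read counts per gene region with RPKM values for each of the 8 libraries, made with the plastid tool cs, per the file headers, from reads of 25 to 100 nt assigned to the position 25 nt from their 5′ end. The deposited tables of comparisons give log2 fold changes and p-values of the authors. Build R64, and the tools STAR 2.7.3a, Bowtie2 2.3.5, DESeq2 and cutadapt 2.6, are listed without roles, per the submitters' processing notes. Counted exon lengths exceed many coding lengths (1079 against 354 bases for ATG8), so neighbouring transcripts may add reads. Depth was 4885844 to 12380049 gene reads per library, which sets the precision.

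Counts were fitted in 1 model of the 4 groups with edgeR 4.0.16 (TMM, filterByExpr, robust quasi-likelihood fit, two-sided, 4 residual degrees of freedom) in R 4.3.3 on 5855 genes. SE are Wald values of that fit. Calls used an adjusted p under 0.05. The code was tested on simulated data. Replicate ratios used a pseudocount of 0.5 CPM. DESeq2 1.42.0, total counts, no filter, coding-region counts, leaving out mitochondrial reading frames, fitting only the groups compared, the deposited RPKM, left-out libraries and a replicate block were alternatives. Genes named are the receptors, the extremes of each role, those that fell, the 10 largest interactions and genotype differences, and each list's extremes, of which 1 is not reported here. Members and lists were chosen with earlier results of these data known. In the authors' deposited table all 37 changes had the sign found here in WT and in grr1-deficient cells. It rests on the same libraries, so this is no independent check. At an adjusted p under 0.05 it holds 33 higher and 1 lower in WT, and 16 higher and 0 lower in grr1-deficient cells. There ATG7, ATG13, ATG14 and ATG31 did not pass in grr1-deficient cells.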

Additional observations from a re-analysis of the deposited data

Results flagged for a closer look

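The change over 4 h of tunicamycin differed between grr1-deficient and WT cells in 21 ATG genes by the interaction test (edgeR, adjusted over 5855 genes, threshold 0.05), and each difference below is the log2 change in grr1-deficient cells minus that in WT. Among the receptors it was -4.28 for ATG39, -2.42 for ATG34, -1.99 for ATG36, -1.42 for ATG19 and -1.14 for ATG32, and it was -0.87 for the scaffold ATG11. In the Atg1 kinase complex it was -1.5 for ATG31, -1.19 for ATG1 and -1.15 for ATG29. Among the conjugation genes it was -3.13 for ATG8, -1.7 for ATG3, -1.4 for ATG7 and -1.03 for ATG4. For membrane supply and the lipid kinase it was -1.07 for ATG9, -0.86 for ATG2 and -0.91 for ATG14. Among accessory genes it was -1.95 for ATG45, -0.87 for ATG44, -0.77 for ATG20 and -0.63 for ATG21, and in the vacuole -1.2 for ATG22.

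Of these 21, 13 passed the test without any 1 of the 8 libraries, and ATG8, ATG22, ATG11, ATG2, ATG14, ATG20, ATG21 and ATG44 did not. ATG11 missed it without WT 0 h replicate 2 (adjusted p = 0.0508) and WT 4 h replicate 2 (0.0526), and ATG20 without the same libraries (0.0552 and 0.0528). ATG2 missed it without any 1 of the WT libraries or grr1-deficient 4 h replicate 2 (0.0507 to 0.0982). ATG14 missed it without any 1 of the WT libraries, grr1-deficient 0 h replicate 1 or 4 h replicate 2 (0.0864 to 0.174). ATG21 missed it without any 1 of the WT libraries or either replicate 2 of grr1-deficient cells (0.075 to 0.122). ATG44 missed it without any 1 of the WT libraries, either replicate 2 or 4 h replicate 1 of grr1-deficient cells (0.0655 to 0.137), and its value was -0.5 without grr1-deficient 0 h replicate 2 and -0.45 without both libraries of replicate 2. That of ATG21 was -0.42 without both libraries of replicate 2, that of ATG2 was -0.55 without grr1-deficient 0 h replicate 1, and that of ATG22 was -0.73 without grr1-deficient 0 h replicate 2. Replicate 2 of grr1-deficient cells, with 0.00393% and 0.000808% of gene reads on mitochondrial reading frames other than Q0092, enters all 21 values, and its part in them was not tested beyond leaving it out.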

How the results depend on the processing

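Leaving out 1 library at a time gave 30 to 34 calls in WT (33 with all libraries), 16 to 21 in grr1-deficient cells (20), 14 to 24 in the interaction (21), 11 to 26 between genotypes at 0 h (22) and 2 to 14 at 4 h (10). At 4 h the count was 17 with total counts, where 1620 of all 5855 genes tested were called lower, beside 828 with TMM. Leaving out both libraries of grr1-deficient replicate 1 was an alternative chosen after seeing the data, as was restricting to the 28 genes. With total counts the median of all genes moved from 0.03 to 0.78 in WT and from 0.03 to -0.65 in the interaction, and changes are best read relative to it: the ATG median in WT stood 1.64 above it either way. ATG27 in WT turned to 0.29 with total counts. Between genotypes at 0 h leaving out both libraries of replicate 1 gave 29. Without those libraries the count of calls also rose in the interaction and, by more, between genotypes at 4 h. Such fits rest on 1 library in each grr1-deficient group, so their counts are not comparable with the others. ATG17 between genotypes at 4 h (0.03) was 0.399 without both libraries of grr1-deficient replicate 2. It turned to -0.47 without grr1-deficient 4 h replicate 1 and to -0.48 without both libraries of replicate 1. The cause of these changes was not tested. With deposited RPKM, not scaled by TMM, the ATG median (that of all genes) was 7.61 (24.6) and 44.8 (39.7) in WT at 0 h and 4 h, and 15.6 (32.3) and 26.8 (30.8) in grr1-deficient cells. The replicate block gave 33, 23, 22, 23 and 11 calls in the same order. The model of the 4 groups did not treat equal replicate numbers as pairs, of which each strain has only 2. Deviations of same-numbered libraries correlated at 0 for WT and at 0.796 for grr1-deficient cells. Both libraries of grr1-deficient replicate 2 also shared the near absence of mitochondrial transcripts other than Q0092. Same-numbered grr1-deficient libraries may therefore not be independent, and the SE given here do not allow for it. Whether they came from 1 culture was not tested. DESeq2 gave 33, 21, 20, 22 and 9. With 2 libraries per group and 4 residual degrees of freedom, small differences may have been missed.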
